A study of Mus musculus with 9 samples.

Results

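A set of 8 genes of the cardiac thick filament and its anchors was followed across 9 arrays of mouse ventricular RNA: the ventricular light chains Myl2 and Myl3, the atrial light chains Myl4 and Myl7, the myosin binding protein Mybpc3, the M-band genes Myom1 and Myom2, and titin (Ttn). Members were all probe sets whose only gene symbol in the platform annotation is one of these 8 names. That gave 8 probe sets of 7 genes, out of 10833 probe sets with 1 symbol and 8251 genes. Myl4 had 2 probe sets, the other measured genes had 1 each, and Ttn had 0, so titin is not analysed here. Of the 8 probe sets, 7 of 6 genes passed the filter on low signal; the Myl7 probe set did not.

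The arrays compared 3 groups of female mice aged 3 months, all transgenic for the receptor of insulin-like growth factor 1. IGF1R-caPI3K mice also carry a constitutively active p110 subunit of phosphoinositide 3-kinase (PI3K), IGF1R-dnPI3K mice also carry a dominant negative p110, and IGF1R mice carry the receptor transgene alone. Each group had 3 arrays, 1 mouse each, from total RNA of both ventricles. The labels also name mice without a transgene and mice with a PI3K transgene alone, which are not analysed here; the baseline of every difference is thus a heart that already carries the receptor transgene, or the other double transgenic heart. The labels name neither the promoter of the transgenes nor the number of founder lines; published mice of these names carry them under the alpha myosin heavy chain promoter of heart muscle cells.

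A thick filament is a bundle of myosin molecules, each with heavy chains that carry an essential and a regulatory light chain on the lever arm next to the motor. Myosin binding protein C cross-links and restrains the motors along part of the filament, myomesins tie neighbouring filaments together at the M-band, and titin runs along the filament to the Z-disc and acts as a spring and template. Heart muscle uses separate light chain genes in ventricles and atria, and the atrial genes are also active in the embryonic ventricle. PI3K acts downstream of this receptor and is known for its part in physiological heart growth.

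The deposited values are signal intensities on a linear scale, 1 per probe set and array, and a signal is not comparable between probe sets. Differences below are log2 differences of signal with the standard error of limma's linear model over all 9 arrays, and adjusted p-values are Benjamini-Hochberg values over 7898 probe sets, with a threshold of 0.05. The members' differences are also given after quantile normalization, which forces the same distribution of signals on every array. Median signals were 161 to 197 per array. The IGF1R-dnPI3K replicate 3 array stood apart, with a mean correlation of 0.927 to the other arrays, against 0.947 to 0.956 for the other 8, and its highest signal was 42449, against 21815 to 26564 on the others. The 3'/5' signal ratio of the CreX control, a bacteriophage transcript added before hybridization, was 1.74 to 1.89 on IGF1R-caPI3K arrays and 1.79 to 1.83 on IGF1R-dnPI3K arrays, against 1.05 to 1.26 on IGF1R arrays. The same ratio for Gapdh, which reports on RNA quality, was 0.843 to 0.873, 0.844 to 0.943 and 0.747 to 0.818 in the same order. The handling of the arrays and the genotype therefore cannot be told apart in comparisons with IGF1R mice. In whole ventricle, fewer cells of a type and less RNA per cell cannot be told apart either.

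In IGF1R-dnPI3K ventricles, Myl2, Myl3, Mybpc3 and Myom2 rose on the deposited scale, by 1.33 to 1.61-fold, and both Myl4 probe sets had lower means that just missed the threshold. After quantile normalization the differences of Myl2, Myl3 and Mybpc3 were 0.01, −0.04 and 0.11, while those of Myom2 and Myl4 kept most of their size, and none passed. Myl2, Myl3 and Mybpc3 ranked between 1st and 18th in brightness on every array. Quantile normalization sets a signal by its rank alone, and the 1st rank had 26461. The IGF1R means were then 22193 for Myl2, 24013 for Myl3 and 22484 for Mybpc3, which left limited room for a rise. On the deposited scale 88 of the 100 probe sets with the highest mean signal were higher in IGF1R-dnPI3K ventricles, with a median log2 difference of 0.41. What part of this lies in RNA and what part in array scaling was not tested. In IGF1R-caPI3K ventricles no member passed, and Myl4 and Myom2 had means close to those of IGF1R ventricles. Myom1 did not pass in any comparison, and Myl7 had background signal throughout. The plot of signals by group shows all 8 probe sets on both scales.

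**Figure D1:**
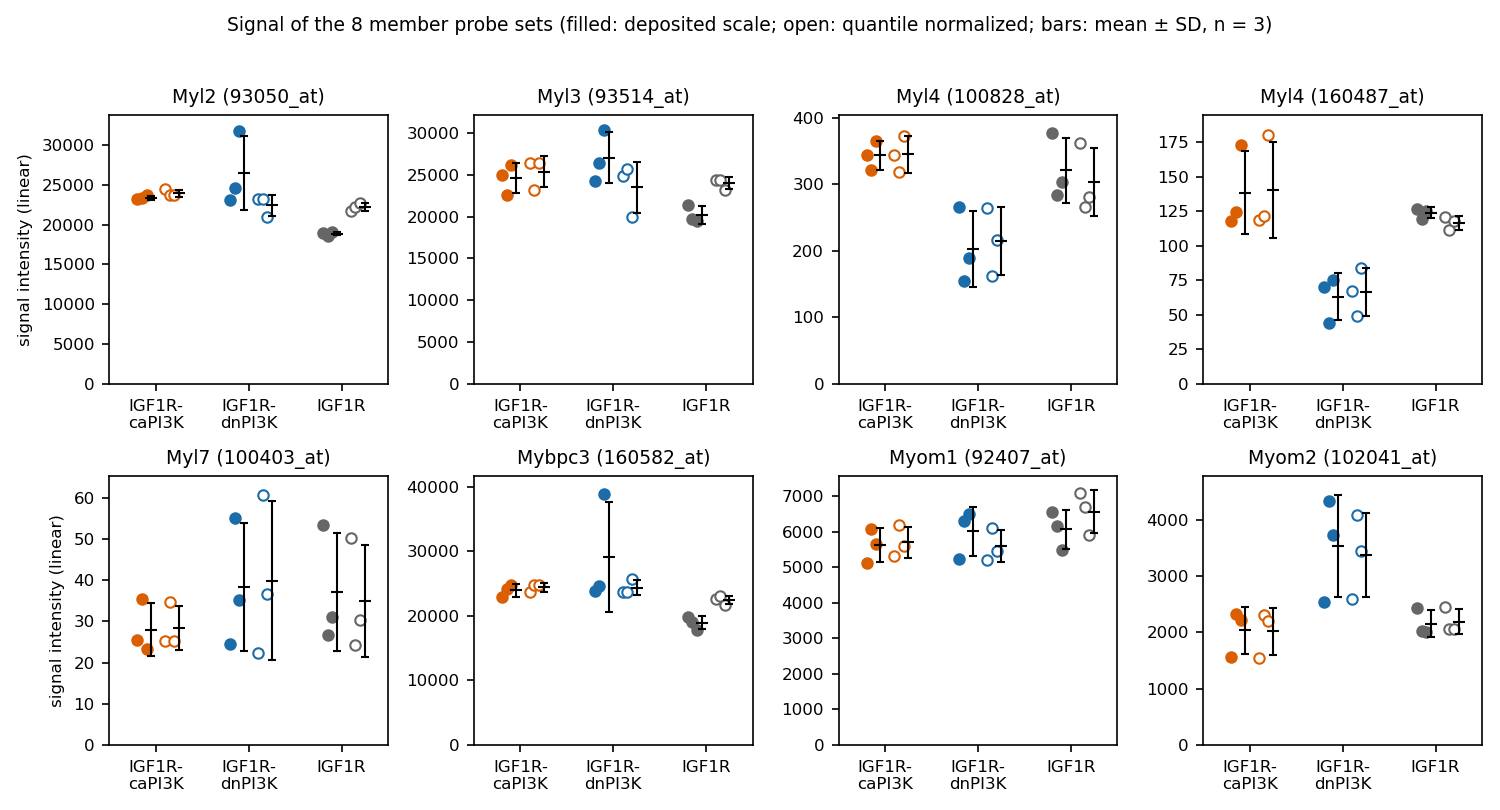
Signal intensity (linear scale, vertical axis from 0) of each member probe set on the 3 arrays of IGF1R-caPI3K, IGF1R-dnPI3K and IGF1R mice; filled points are deposited values, open points quantile normalized values, and bars the mean ± SD (n = 3). Deposited Myl2, Myl3 and Mybpc3 signals were highest on 1 IGF1R-dnPI3K array, whereas the 3 IGF1R-dnPI3K arrays lay below all others for both Myl4 probe sets and above all others for Myom2.

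The promoters of 5 members are shown because Myl2, Myl3 and Mybpc3 moved together on the deposited scale, Myl4 lay on the other side, and Myom1 stayed about level. Each is the 250 bases before a transcript start listed in the RefSeq promoter table on build GRCm38.p6, 5′ to 3′ along the gene; capitals mark matches, on either strand, to a CArG box (bound by serum response factor), a MEF2 site (bound by MEF2 factors), CATTCC (the M-CAT element of TEAD factors) or TATAAA.
Myl2 promoter (chr5:122092474-122092723, plus strand): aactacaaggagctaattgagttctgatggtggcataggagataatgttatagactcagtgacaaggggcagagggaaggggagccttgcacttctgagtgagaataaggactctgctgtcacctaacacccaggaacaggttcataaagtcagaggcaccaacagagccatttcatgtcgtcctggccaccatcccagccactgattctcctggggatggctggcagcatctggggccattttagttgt
Myl3 promoter (chr9:110763428-110763677, plus strand): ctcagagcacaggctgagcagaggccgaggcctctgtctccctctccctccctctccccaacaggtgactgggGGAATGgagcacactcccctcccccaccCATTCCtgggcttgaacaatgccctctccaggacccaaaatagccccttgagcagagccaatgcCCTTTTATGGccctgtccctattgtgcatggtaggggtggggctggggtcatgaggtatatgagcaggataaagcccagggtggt
Mybpc3 promoter (chr2:91117894-91118143, plus strand): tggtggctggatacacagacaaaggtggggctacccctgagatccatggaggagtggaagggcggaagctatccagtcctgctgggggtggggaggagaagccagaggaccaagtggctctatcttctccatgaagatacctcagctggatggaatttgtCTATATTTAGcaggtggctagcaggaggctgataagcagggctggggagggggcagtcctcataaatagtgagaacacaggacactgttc
Myl4 promoter (chr11:104550413-104550662, plus strand): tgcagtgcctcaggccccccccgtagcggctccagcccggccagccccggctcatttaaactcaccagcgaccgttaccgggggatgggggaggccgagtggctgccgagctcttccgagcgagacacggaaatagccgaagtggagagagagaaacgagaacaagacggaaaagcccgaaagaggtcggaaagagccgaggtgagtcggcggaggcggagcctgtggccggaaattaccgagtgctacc
Myom1 promoter (chr17:71019307-71019556, plus strand): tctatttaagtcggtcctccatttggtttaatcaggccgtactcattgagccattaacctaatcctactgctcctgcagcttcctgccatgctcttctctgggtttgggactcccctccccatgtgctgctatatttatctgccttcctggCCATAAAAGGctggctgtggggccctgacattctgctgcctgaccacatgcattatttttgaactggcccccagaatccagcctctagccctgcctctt
The windows listed for Myl4 and Myom1 lie inside the genes' RefSeq spans, before an internal start, and that of Mybpc3 runs slightly into its span. Counted back from the listed start, a CArG box stood at 85 to 76 bases in Myl3 and at 99 to 90 bases in Myom1, and a MEF2 site at 90 to 81 bases in Mybpc3. Myl3 also held CATTCC at 149 to 144 bases and, on the opposite strand, at 177 to 172 bases. The Myl2 window and the Myl4 window held none of the 4 motifs.

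The promoter table listed 8 windows for 7 members, Myl2 having 2, and none for Myom2. A CArG box was in 3 of 8 windows (Myl3, Myl7 and Myom1), against 1.47% of all 32851 windows of the same length. A MEF2 site was in 2 of 8 (Mybpc3 and Ttn), against 2.92%, and CATTCC in 2 of 8 (Myl3 and Myl7), against 12.6%. TATAAA was in 1 of 8, the second Myl2 window, against 12.4%. Members with a CArG box thus included Myl3, which rose on the deposited scale in IGF1R-dnPI3K ventricles, and Myom1, which did not pass; these matches describe the sequence only.

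Myl2 (probe set 93050_at) encodes the regulatory light chain of ventricular and slow muscle myosin and is a defining marker of the ventricle. Its signals were 23178, 23280 and 23682 on IGF1R-caPI3K arrays, 23124, 24533 and 31752 on IGF1R-dnPI3K arrays and 18898, 18627 and 19077 on IGF1R arrays. All arrays of both double transgenic groups were above all IGF1R arrays, and the IGF1R-dnPI3K group was spread by its replicate 3. The group means were 23380 ± 266, 26470 ± 4628 and 18867 ± 227 in the same order (SD, n = 3 each). The log2 difference between IGF1R-dnPI3K and IGF1R was 0.47 ± 0.12, a 1.39-fold rise with an adjusted p of 0.0281 in limma. Between IGF1R-caPI3K and IGF1R it was 0.31 ± 0.12 (adjusted p 0.199), and between IGF1R-caPI3K and IGF1R-dnPI3K −0.17 ± 0.12 (adjusted p 0.52).

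After quantile normalization the Myl2 signals were 24414, 23670 and 23670 on IGF1R-caPI3K arrays, 23209, 23209 and 20923 on IGF1R-dnPI3K arrays and 21734, 22165 and 22680 on IGF1R arrays. The IGF1R-dnPI3K and IGF1R arrays then overlapped, with a log2 difference of 0.01 ± 0.06 (adjusted p 0.904). The IGF1R-caPI3K arrays stayed above both other groups, with a difference from IGF1R of 0.11 ± 0.06 that did not pass (adjusted p 0.392). By rank of brightness on its array, Myl2 was 4th to 5th in IGF1R-caPI3K, 6th to 13th in IGF1R-dnPI3K and 8th to 11th in IGF1R ventricles.

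Myl3 (93514_at) encodes the essential light chain of ventricular and slow muscle myosin. Its signals were 24917, 22621 and 26191 on IGF1R-caPI3K arrays, 24316, 26444 and 30305 on IGF1R-dnPI3K arrays and 21418, 19739 and 19484 on IGF1R arrays. Again the IGF1R arrays were lowest without overlap, and the 2 double transgenic groups overlapped each other. Means were 24576 ± 1809 in IGF1R-caPI3K, 27022 ± 3036 in IGF1R-dnPI3K and 20214 ± 1051 in IGF1R ventricles (SD, n = 3 each). The IGF1R-dnPI3K rise over IGF1R was 0.41 ± 0.11 on the log2 scale, or 1.33-fold, with an adjusted p of 0.0324 in limma. The IGF1R-caPI3K difference from IGF1R was 0.28 ± 0.11 (adjusted p 0.203), and that from IGF1R-dnPI3K was −0.13 ± 0.11 (adjusted p 0.571).

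Quantile normalization placed Myl3 at 26461, 23209 and 26461 in IGF1R-caPI3K, 24804, 25718 and 19995 in IGF1R-dnPI3K and 24414, 24414 and 23209 in IGF1R ventricles. All groups overlapped, and IGF1R-dnPI3K replicate 3, highest on the deposited scale, became the lowest. The differences from IGF1R were then 0.08 ± 0.10 for IGF1R-caPI3K (adjusted p 0.703) and −0.04 ± 0.10 for IGF1R-dnPI3K (adjusted p 0.823), the second with its sign turned.

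Mybpc3 (160582_at) encodes cardiac myosin binding protein C, whose loss of function is a frequent cause of hypertrophic cardiomyopathy in humans. It had 22870, 24217 and 24842 on IGF1R-caPI3K arrays, 23882, 24614 and 38957 on IGF1R-dnPI3K arrays and 19872, 19085 and 17883 on IGF1R arrays. The IGF1R arrays were again below all others, and IGF1R-dnPI3K replicate 3 was far above the other arrays of its own group. Means were 23976 ± 1008, 29151 ± 8500 and 18947 ± 1002 in IGF1R-caPI3K, IGF1R-dnPI3K and IGF1R ventricles (SD, n = 3 each). The IGF1R-dnPI3K rise over IGF1R was 0.59 ± 0.16, or 1.5-fold, with an adjusted p of 0.041 in limma. The IGF1R-caPI3K difference from IGF1R was 0.34 ± 0.16 (adjusted p 0.296). After quantile normalization the means were 24426 ± 655, 24353 ± 1182 and 22484 ± 674 in the same order, still with the IGF1R arrays lowest. The differences from IGF1R were then 0.12 ± 0.06 for IGF1R-caPI3K (adjusted p 0.33) and 0.11 ± 0.06 for IGF1R-dnPI3K (adjusted p 0.245), and neither passed.

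The spread of these 3 genes differed by group. Coefficients of variation for Myl2, Myl3 and Mybpc3 were 1.14%, 7.36% and 4.2% in IGF1R-caPI3K ventricles, 17.5%, 11.2% and 29.2% in IGF1R-dnPI3K ventricles, and 1.2%, 5.2% and 5.29% in IGF1R ventricles. Without IGF1R-dnPI3K replicate 3 the IGF1R-dnPI3K differences from IGF1R on the deposited scale were 0.34 ± 0.06 for Myl2 (adjusted p 0.0108), 0.33 ± 0.08 for Myl3 (adjusted p 0.0347) and 0.36 ± 0.07 for Mybpc3 (adjusted p 0.0159). The 3 genes thus still passed on the deposited scale in limma without the outlying array. With that array left out, the same 3 genes also passed in IGF1R-caPI3K against IGF1R.

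Myl4 encodes the essential light chain of atrial and embryonic muscle myosin. Its brighter probe set (100828_at) had signals of 344, 322 and 366 on IGF1R-caPI3K arrays, 266, 154 and 189 on IGF1R-dnPI3K arrays and 376, 284 and 304 on IGF1R arrays. The IGF1R-dnPI3K arrays were below all others, and the other groups overlapped. Means were 344 ± 21.8 in IGF1R-caPI3K, 203 ± 56.9 in IGF1R-dnPI3K and 321 ± 48.7 in IGF1R ventricles (SD, n = 3 each). The IGF1R-dnPI3K difference from IGF1R was −0.69 ± 0.21, 0.62 of the IGF1R level, with an adjusted p of 0.0509 in limma. The IGF1R-caPI3K difference from IGF1R-dnPI3K was 0.79 ± 0.21 (adjusted p 0.1), and that from IGF1R was 0.11 ± 0.21 (adjusted p 0.817).

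The dimmer Myl4 probe set, 160487_at, had 118, 124 and 173 on IGF1R-caPI3K arrays, 70.2, 43.9 and 75.6 on IGF1R-dnPI3K arrays and 127, 119 and 126 on IGF1R arrays. It ordered the groups as the first did, with no IGF1R-dnPI3K array above 75.6 and no other array below 118. Its IGF1R-dnPI3K difference from IGF1R was −1.01 ± 0.31 (adjusted p 0.0521 in limma), and its IGF1R-caPI3K difference from IGF1R-dnPI3K was 1.15 ± 0.31 (adjusted p 0.109). Its IGF1R-dnPI3K signals were close to background: Y-linked probe sets, without a target in female mice, reached 63.9. The size of the difference in this probe set is therefore uncertain. Over the 9 arrays the 2 probe sets correlated at r = 0.91, a description of 1 gene measured by 2 probe sets on shared arrays. After quantile normalization the IGF1R-dnPI3K differences from IGF1R were −0.51 ± 0.20 (adjusted p 0.113) and −0.84 ± 0.31 (adjusted p 0.0957), again without overlap. Without IGF1R-dnPI3K replicate 1 they were −0.90 (adjusted p 0.00903) and −1.10 (adjusted p 0.0398) on the deposited scale, so that both passed. Without replicate 2 they were −0.51 (adjusted p 0.126) and −0.77 (adjusted p 0.112), and without replicate 3 −0.66 (adjusted p 0.11) and −1.16 (adjusted p 0.0582). Neither passed with any IGF1R or IGF1R-caPI3K array left out.

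Myl7 (100403_at) encodes the regulatory light chain of atrial myosin. Its signals were 25.4, 35.4 and 23.2 on IGF1R-caPI3K arrays, 24.4, 55 and 35.2 on IGF1R-dnPI3K arrays and 53.4, 26.7 and 31 on IGF1R arrays. All 9 lay within the signals of 9 Y-linked probe sets, which are background in female mice and reached 63.9. The groups overlapped, the probe set was not tested, and no difference in Myl7 was detectable with it.

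Myom1 (92407_at) encodes myomesin-1, the M-band protein found in all striated muscle. Its signals were 5136, 6085 and 5670 on IGF1R-caPI3K arrays, 5228, 6310 and 6515 on IGF1R-dnPI3K arrays and 6560, 6168 and 5482 on IGF1R arrays. The 3 groups overlapped. Differences from IGF1R were −0.11 ± 0.12 in IGF1R-caPI3K (adjusted p 0.667 in limma) and −0.02 ± 0.12 in IGF1R-dnPI3K (adjusted p 0.943). After quantile normalization they were −0.20 ± 0.10 (adjusted p 0.317) and −0.23 ± 0.10 (adjusted p 0.16).

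Myom2 (102041_at) encodes M-protein, the myomesin of fast skeletal and adult cardiac muscle. Its signals were 1562, 2320 and 2227 on IGF1R-caPI3K arrays, 2549, 4325 and 3736 on IGF1R-dnPI3K arrays and 2430, 2030 and 2010 on IGF1R arrays. All 3 IGF1R-dnPI3K arrays were above all others, though replicate 1 by little, and the other groups overlapped. Means were 2036 ± 414 in IGF1R-caPI3K, 3536 ± 905 in IGF1R-dnPI3K and 2156 ± 237 in IGF1R ventricles (SD, n = 3 each). The IGF1R-dnPI3K rise over IGF1R was 0.68 ± 0.20, or 1.61-fold, with an adjusted p of 0.0498 in limma, just inside the threshold. After quantile normalization it was 0.60 ± 0.19 with an adjusted p of 0.0587, just outside. The IGF1R-caPI3K difference from IGF1R-dnPI3K was −0.78 ± 0.20 (adjusted p 0.1), and −0.74 ± 0.19 after quantile normalization (adjusted p 0.0899).

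The Myom2 call depended on single arrays. Without IGF1R-dnPI3K replicate 2 the difference from IGF1R was 0.52 (adjusted p 0.132 in limma), and without replicate 3 it was 0.63 ± 0.23 (adjusted p 0.121). Without IGF1R-dnPI3K replicate 1 it was 0.90 ± 0.18 (adjusted p 0.00746). The sign was the same in all 21 alternative settings, which ranged from 0.48 to 0.90.

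Counted over the members, 4 of the 7 tested probe sets rose and 0 fell in IGF1R-dnPI3K against IGF1R, where 13.5% of all 7898 probe sets passed and 5.7% passed as higher. The members' median difference was 0.41, beside −0.09 over all probe sets tested. The groups did not overlap for 6 of the 7, all but Myom1, where 34.4% of all probe sets did not. After quantile normalization 0 of 7 passed in limma (4 at an unadjusted p below 0.05), where 12.7% of all probe sets did, and the members' median was −0.04. The groups then did not overlap for 4 of the 7 (Mybpc3, Myom2 and both Myl4 probe sets), where 32.5% of all did not.

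In IGF1R-caPI3K against IGF1R, 0 of the 7 passed in limma, where 0.215% of all probe sets did. The groups did not overlap for 3 of the 7 (Myl2, Myl3 and Mybpc3), where 32.9% of all probe sets did not. At an unadjusted p below 0.05 in limma there were 2 of 7, Myl2 (0.0228) and Myl3 (0.0243). Counts at an unadjusted p, in all comparisons and lists, are given without the share over all probe sets. They are therefore not a result about the members. The members' median was 0.14, beside −0.04 over all probe sets tested. After quantile normalization 0 of 7 passed too (0 also at an unadjusted p), where 0.988% of all did, and the groups did not overlap for 2 of the 7, Myl2 and Mybpc3, where 31.2% of all did not. In IGF1R-caPI3K against IGF1R-dnPI3K, 0 of the 7 passed (3 at an unadjusted p), where 1.24% of all did. There the groups did not overlap for 3 of the 7, both Myl4 probe sets and Myom2, where 19.5% of all probe sets did not. After quantile normalization 0 of 7 passed (3 at an unadjusted p), where 1.54% of all did, and 4 of the 7 did not overlap, Myl2 in addition, where 18.2% of all did not. These 3 comparisons share arrays and are not independent of each other. The F test over all 3 groups passed none of the members: adjusted p-values in limma were 0.0592 for Myom2, 0.06 and 0.062 for the Myl4 probe sets, 0.0611 for Myl2, 0.069 for Myl3, 0.0916 for Mybpc3 and 0.75 for Myom1. After quantile normalization none passed either, the lowest being 0.0571 for Myom2. The plot of differences on both scales shows which members moved with the normalization.

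**Figure D2:**
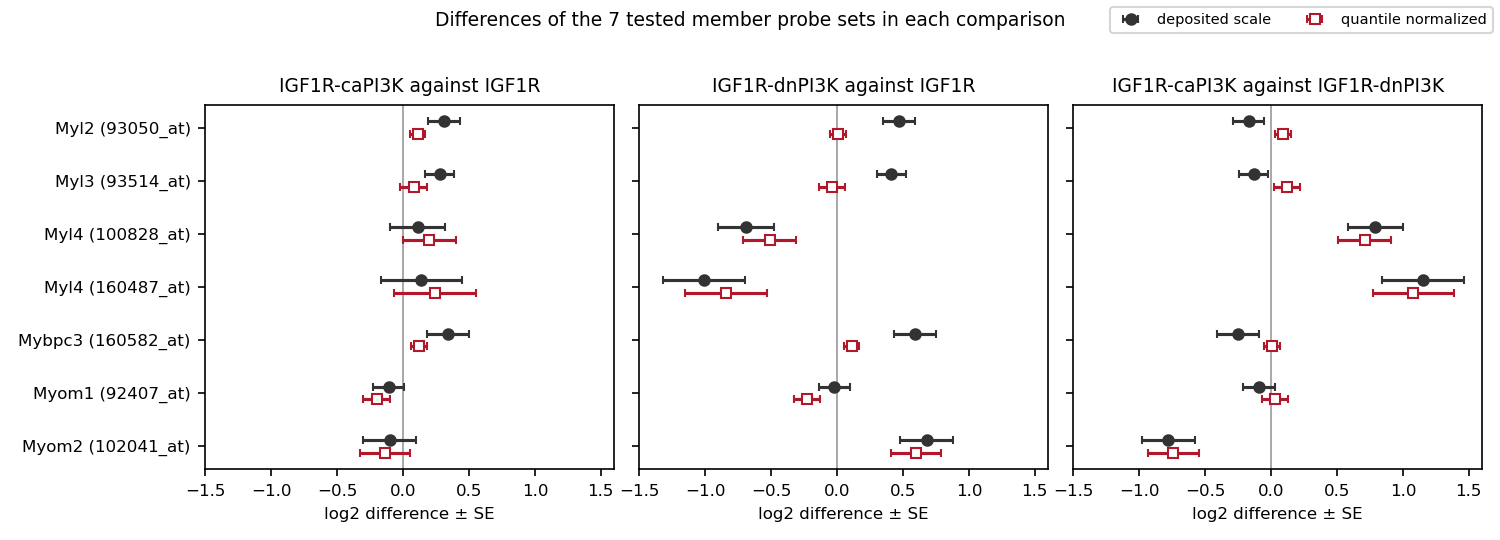
Log2 difference ± SE (horizontal axis) of each of the 7 tested member probe sets in the 3 comparisons, in the first-named group minus the second, on the deposited scale (filled circles) and after quantile normalization (open squares). In IGF1R-dnPI3K against IGF1R, Myl2, Myl3 and Mybpc3 moved to between −0.04 and 0.11 after quantile normalization, whereas Myom2 stayed at 0.60 and the Myl4 probe sets at −0.51 and −0.84.

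Myl2, Myl3 and Mybpc3 belong to the 100 probe sets with the highest mean signal, and the bright end of the arrays differed between groups as a whole. The median signal of those 100 was 13002, 12947 and 13552 on IGF1R-caPI3K arrays, 13835, 14250 and 18616 on IGF1R-dnPI3K arrays and 12340, 12342 and 11819 on IGF1R arrays. The groups did not overlap, and IGF1R-dnPI3K replicate 3 was again highest. In IGF1R-dnPI3K against IGF1R, 88 of the 100 were higher, with a median log2 difference of 0.41, close to the 0.47, 0.41 and 0.59 of the 3 genes. In IGF1R-caPI3K against IGF1R, 82 of the 100 were higher, with a median of 0.21, beside 0.31, 0.28 and 0.34 for the 3 genes. After quantile normalization these medians were 0.01 and 0.03. What part of the bright-end difference is a change in RNA and what part lies in the scaling of the arrays was not tested.

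**Figure D3:**
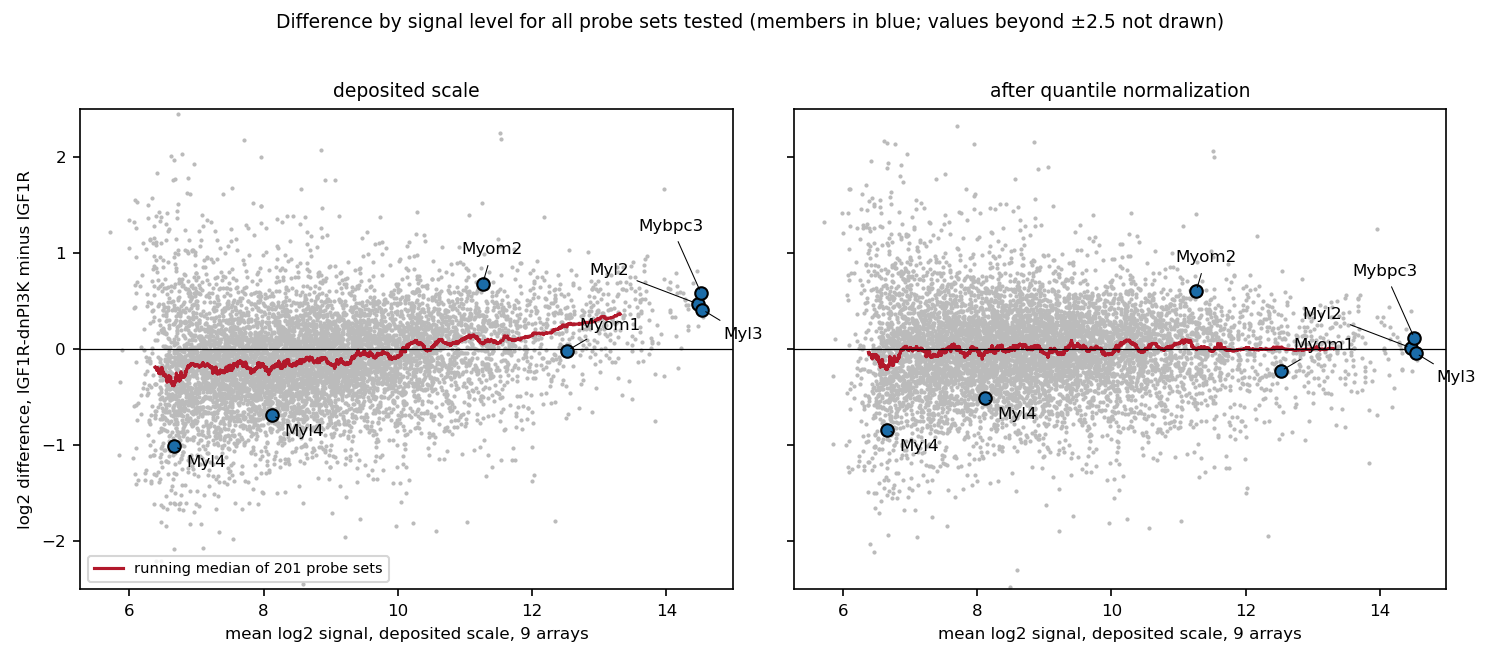
Log2 difference between IGF1R-dnPI3K and IGF1R (vertical axis) against mean log2 signal over the 9 arrays (horizontal axis) for the 7898 probe sets tested, with the 7 member probe sets as large points and a running median as a line. On the deposited scale (left) the running median climbs with signal and Myl2, Myl3 and Mybpc3 lie at its bright end, at 0.41 to 0.59; after quantile normalization (right) it is flat and they lie between −0.04 and 0.11.

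Ratios between member probe sets on the same array do not depend on a single scale factor of that array, though they do on a scaling that changes with brightness. Given as log2 ratios minus their mean over IGF1R arrays, Myom2 over Myom1 was −0.22, 0.10 and 0.15 in IGF1R-caPI3K, 0.46, 0.95 and 0.69 in IGF1R-dnPI3K and 0.06, −0.11 and 0.05 in IGF1R ventricles. The IGF1R-dnPI3K arrays stood above all others, with a mean difference of 0.70 from IGF1R, and the other groups overlapped. Myl4 (100828_at) over Myl3 was −0.19, −0.15 and −0.18 in IGF1R-caPI3K, −0.53, −1.44 and −1.34 in IGF1R-dnPI3K and 0.15, −0.14 and −0.02 in IGF1R ventricles. Here all 3 groups were apart, with mean differences from IGF1R of −0.17 in IGF1R-caPI3K, barely outside the IGF1R range, and −1.10 in IGF1R-dnPI3K. These depend on the bright end that holds Myl3: after quantile normalization they were 0.12, with overlap, and −0.47, without. Myom2 over Myom1 then differed from IGF1R by 0.83 in IGF1R-dnPI3K ventricles, still without overlap.

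Myl2 over Myl3, the regulatory over the essential ventricular light chain, overlapped between all groups, with differences from IGF1R of 0.03 in IGF1R-caPI3K and 0.06 in IGF1R-dnPI3K. Mybpc3 over Myl2 overlapped too, with differences from IGF1R of 0.03 and 0.11 in the same order. Myom1 over Mybpc3 was lower than in IGF1R ventricles in both double transgenic groups without overlap, with mean differences of −0.45 in IGF1R-caPI3K and −0.60 in IGF1R-dnPI3K, which were −0.32 and −0.34 after quantile normalization, again without overlap. With 3 arrays against 3 the two-sided exact permutation test cannot give a p below 0.1; the 7 differences without overlap had that p, and 0.214 after adjustment over the 15 ratios and comparisons, so none passed.

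**Figure D4:**
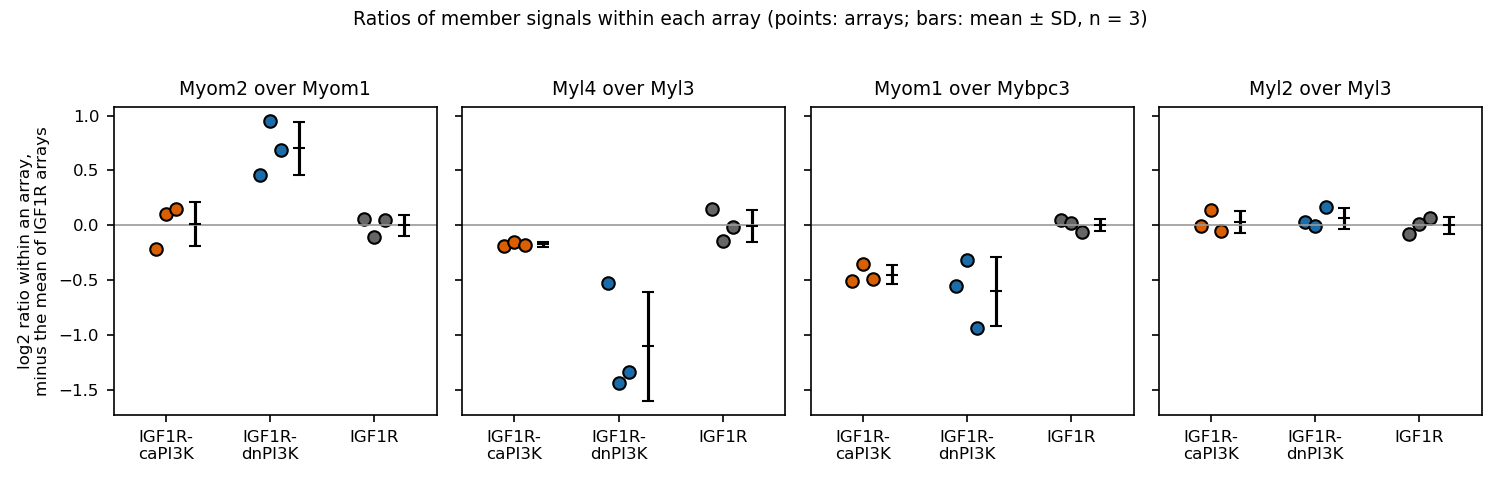
Log2 ratio of 2 member signals on the same array, minus its mean over the IGF1R arrays (vertical axis), for IGF1R-caPI3K, IGF1R-dnPI3K and IGF1R mice; points are arrays and bars the mean ± SD (n = 3). Myom2 over Myom1 was 0.46 to 0.95 and Myl4 over Myl3 −1.44 to −0.53 on IGF1R-dnPI3K arrays, apart from all other arrays, while Myl2 over Myl3 overlapped in all groups.

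Over the 9 arrays, which share groups and scaling, Myl2, Myl3 and Mybpc3 varied together on the deposited scale, with r of 0.92 to 0.97 between pairs. After quantile normalization Myl2 and Myl3 kept r = 0.76, while Mybpc3 had −0.02 with Myl2 and −0.30 with Myl3. Myl4 (100828_at) and Myom2 ran opposite to each other on both scales, at −0.85 and −0.80. Among 5936 other genes, those with log2 signals most like Myl2 were Anapc5, Nomo1 and Tnnc1, cardiac troponin C (r = 0.99 each). For Mybpc3 they were Tnnc1, Psmb3 and Eno3 (0.99 each), and for Myl3 they were Elob, Ethe1 and Psmb2 (0.98 each). For Myl4 they were Dio2, an iodothyronine deiodinase, at 0.98, and Wnk1 and Fut8 at 0.96. For Myom2 they were Ndufa6 and Efnb3 at 0.95 and Map1lc3b at 0.94, and for Myom1 Psmb4 at 0.91, Gga2 at 0.90 and Ppp4c at 0.88. These likenesses are descriptions over arrays of 3 groups, and no value after quantile normalization was taken for them. The part of the shared scaling in them was not tested.

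Among 7 other myosin light chain genes, 6 were on the array and 5 were tested. In IGF1R-dnPI3K against IGF1R, 0 rose and 1 fell: Myl1, the essential light chain of fast skeletal muscle. Myl1 averaged 10870 in IGF1R-caPI3K, 1985 in IGF1R-dnPI3K and 6677 in IGF1R ventricles. Its log2 differences were −1.79 ± 0.19 for IGF1R-dnPI3K against IGF1R (adjusted p 0.00347 in limma) and 2.49 ± 0.19 for IGF1R-caPI3K against IGF1R-dnPI3K (adjusted p 1.64e-04). It thus lay on the same side as Myl4, the other essential light chain gene with low IGF1R-dnPI3K signals, and passed after quantile normalization as well (−1.95, adjusted p 8.80e-04). Myl6b, Myl9, Myl12b and Mylpf had differences of 0.21, 0.20, 0.16 and −0.03 in IGF1R-dnPI3K against IGF1R, and none passed. Of the 9 skeletal muscle markers measured, Tnni2, Tnnt3, Myh1 and Myh2 were at the Y-linked level on all arrays. The others were above it in group means of their brightest probe set: Pvalb at 1363, 1320 and 1153, Myh4 at 322, 373 and 336, Mylpf at 188, 185 and 187 and Tnnc2 at 158, 115 and 169 in IGF1R-caPI3K, IGF1R-dnPI3K and IGF1R ventricles, besides Myl1. The dimmer probe sets of Pvalb, Myh4, Mylpf and Tnnc2 did not exceed 49.2, 42.3, 4.2 and 56.8 on any array. Y-linked probe sets reached 63.9, so the probe sets of these genes disagreed on whether there was signal.

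Of 12 heavy chain and other myosin binding genes, 4 were tested, and in IGF1R-dnPI3K against IGF1R 1 rose and 0 fell. Myh6, the adult mouse cardiac heavy chain, averaged 21805 in IGF1R-caPI3K, 27853 in IGF1R-dnPI3K and 21190 in IGF1R ventricles. It rose by 0.39 ± 0.11 in IGF1R-dnPI3K (adjusted p 0.0383 in limma), but stood at −0.07 after quantile normalization, beside 0.01 for Myl2 and −0.04 for Myl3, the light chains that it binds. Myh7, the fetal heavy chain of the mouse ventricle, had 0.24 ± 0.27 in its brighter probe set (adjusted p 0.578) and −0.71 ± 0.40 in the other (adjusted p 0.246); both carry the f suffix of probe sets that can bind related genes.

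Of 19 titin and M-band partners 12 were tested by their brightest probe set. In IGF1R-dnPI3K against IGF1R 0 rose and 1 fell: Capn3, a protease that binds titin, at −0.85 ± 0.18 (adjusted p 0.0174). After quantile normalization 5 fell. They included Ankrd1, a stretch-induced repeat protein bound to titin, at −0.68 (adjusted p 0.0109) against −0.28 on the deposited scale (adjusted p 0.0617). Fhl2, a LIM protein that binds titin, likewise had −0.44 (adjusted p 0.00568) against −0.13 (adjusted p 0.421). In IGF1R-caPI3K against IGF1R 0 rose and 1 fell: Ckm, muscle creatine kinase of the M-band, at −0.59 ± 0.10 (adjusted p 0.0482), though its other tested probe set had 0.79 ± 0.33 (adjusted p 0.236). A second Fhl1 probe set, of a titin-binding LIM protein, also fell in IGF1R-dnPI3K against IGF1R, at −0.49 ± 0.11 (adjusted p 0.0203), while the brighter one had −0.12 ± 0.11 (adjusted p 0.498). The list's median in IGF1R-dnPI3K against IGF1R was −0.13, beside −0.09 over all probe sets tested.

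Genes that act on myosin were on the array only in part. Of 6 light chain kinase and phosphatase genes 2 were tested. Ppp1cb, the catalytic subunit of myosin phosphatase, fell in IGF1R-dnPI3K against IGF1R by 1.23 on the log2 scale (SE 0.30, adjusted p 0.0284 in limma), and the smooth muscle kinase Mylk had 0.11 ± 0.13 (adjusted p 0.605). Of 5 myosin folding genes 3 were tested, and 1 fell: the chaperone Hsp90aa1, at −0.70 ± 0.20 (adjusted p 0.0409). Smyd1, a methyltransferase of myofibril assembly, had −0.57 ± 0.18 (adjusted p 0.0547) in its brighter probe set and 0.10 ± 0.34 (adjusted p 0.856) in the other. Of 4 splicing factors of titin and other sarcomere genes 2 were tested, and Mbnl1 fell, at −0.45 ± 0.12 (adjusted p 0.0371). Ppp1cb, Hsp90aa1 and Mbnl1 passed after quantile normalization too, with adjusted p-values of 0.0212, 0.0274 and 0.0266. Of 13 transcription factors known to act on cardiac light chain genes 7 were tested, and in the brightest probe set of each 0 passed in any of the 3 comparisons in limma (0 also at an unadjusted p below 0.05). Their IGF1R-dnPI3K differences from IGF1R were 0.00 for Mef2a, 0.38 for Mef2c, −0.04 for Mef2d, −0.06 for Gata4, 0.09 for Nkx2-5, −0.23 for Hand2 and −0.23 for Nr2f2. The probe sets of Mef2c disagreed: a dimmer one had −0.63 ± 0.20 (adjusted p 0.0615).

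Markers of ventricular muscle were abundant on all arrays: the 7 measured summed to 137420 to 143963 in IGF1R-caPI3K, 147969 to 187714 in IGF1R-dnPI3K and 123817 to 132176 in IGF1R ventricles. In IGF1R-dnPI3K against IGF1R 4 of them rose, Myh6 and the members Myl2, Myl3 and Mybpc3. Ryr2 fell (−0.55, adjusted p 0.017 in limma), as it did in IGF1R-caPI3K against IGF1R (−0.70, adjusted p 0.0464). After quantile normalization 0 rose and 1 fell in IGF1R-dnPI3K against IGF1R by brightest probe set, again Ryr2 (−0.75, adjusted p 0.00722 in limma). The brightest probe sets of Tnni3 and Actc1 passed on neither scale. They had 0.33 and 0.02 on the deposited scale, and −0.11 and −0.40 after quantile normalization. A second Actc1 probe set had −0.20 (adjusted p 0.177), but fell after quantile normalization (−0.61, adjusted p 0.0191). Atrial markers were all on the array, and 6 of 10 were tested. Their sums were 5280 to 6027, 5603 to 7662 and 4799 to 5325 in IGF1R-caPI3K, IGF1R-dnPI3K and IGF1R ventricles. In IGF1R-dnPI3K against IGF1R 1 atrial marker rose, Nppa, atrial natriuretic peptide, which the stressed ventricle also makes (0.80, adjusted p 0.0185 in limma). Nppa alone, at 4028 to 6307 in IGF1R-dnPI3K and 2832 to 3439 in IGF1R ventricles, was the larger part of the atrial sums. All other atrial markers tested had the opposite sign on the deposited scale, and none passed. These were Pam at −1.21, Myl4 at −0.69, Dkk3 at −0.52, Nr2f2 at −0.23 and Stard10 at −0.08. Myl7 was at the Y-linked level, and Sln and Bmp10 averaged at most 76.5. Fibroblast markers summed to 29147 to 33123, 19410 to 22620 and 27358 to 30251 in the same order. In IGF1R-dnPI3K against IGF1R 4 of 6 fell, Col1a1, Col3a1, Postn and Lum. Pdgfra had −0.88 (adjusted p 0.0645 in limma) and Dcn had 0.09 (adjusted p 0.621). Dcn, with means of 15343, 14007 and 13154 in the same order, was the largest part of the sums. Macrophage markers summed to 2300 to 2590, 1219 to 1875 and 2436 to 2649, with 2 of 3 tested lower, and 2 of 5 endothelial markers were lower too, 1 of them (Kdr) after quantile normalization, when Pecam1 had an adjusted p of 0.0577. Smooth muscle markers summed to 1611 to 1827, 2034 to 3309 and 1808 to 1906, and red blood cell markers to 18929 to 21078, 20452 to 36404 and 16788 to 18047, with none passing in that comparison (2 and 1 at an unadjusted p below 0.05). The part of these cell types in the members' differences was not tested.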

How the data were processed

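Ventricular RNA of 9 mice was measured on 9 one-colour arrays. Groups came from the sample titles, and replicates were numbered in deposit order. The authors deposited linear signal intensities, 1 for each probe set on each array; no label states the algorithm, the scaling or detection calls. It lists 12488 probe sets, of which 66 are controls. Symbols came from the platform annotation (10833 probe sets with 1, 396 with several, 1193 with none), and 0 changed on updating through the RefSeq table. Promoters came from RefSeq on GRCm38.p6, and no other coordinates were used.

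Lower values were set to 32.4 (20th percentile of positive values) before taking log2; 0.346% of tested values were at or below it. A probe set was tested if on 3 or more arrays it exceeded that array's 40th percentile (7898 of 12422). One limma 3.58.1 model (R 4.3.3) covered all 3 groups, with a mean-dependent prior for the moderated variances and Benjamini-Hochberg adjustment over all probe sets tested. The fit was tested on simulated data in which 200 of 7898 probe sets were changed in IGF1R-dnPI3K. In IGF1R-dnPI3K against IGF1R it recovered 6.76% of changes of log2 size 0.5, 62.5% of size 1 and 87.1% of size 2. Of its calls 3.88% were false. A member that did not pass may therefore still differ by such an amount. The simulation was a single run with independent normal noise, each probe set having the same spread on every array. Unlike the data, it held no outlying array and no shift shared by bright probe sets. Its rates need not hold for the data. P-values set a difference against the moderated spread between mice within the 3 groups, and their precision is limited by the 9 arrays. They do not cover a difference in array handling that coincides with genotype. The alternatives were quantile normalization, a common median, other floors and filters, no variance trend, array weights, fits with only the groups compared, the series of mouse numbers as a block, and each array left out. Ratios on quantile normalized values were added after seeing the data.

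The members, the gene lists and the tests were chosen with earlier results of these data known. All member probe sets are named; of the other lists all measured genes are counted, and those named passed in a comparison or stand beside a member by role. Likeness is the Pearson correlation of log2 signal over 9 arrays with each member's brightest tested probe set, and the 3 highest genes are named.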

Additional observations from a re-analysis of the deposited data

How the results depend on the processing

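The number of the 7 member probe sets past the threshold in IGF1R-dnPI3K against IGF1R was 4 in limma. It was 0 after quantile normalization, 0 after quantile normalization with only the 2 groups compared, 0 with only the 2 groups compared, 0 with no filter, which adds Myl7 to make 8, 0 with the series of mouse numbers as a block, and 1 with no variance trend, the dimmer Myl4 probe set. With quantile normalization and without IGF1R-dnPI3K replicate 3, a setting chosen after seeing the data, it was 0. It was 4 with a common median, with the higher floor and with log2(value + 16), 5 with the stricter filter, which keeps 6 member probe sets, and 6 with array weights. Leaving out 1 array gave 0 to 6: 0 without any 1 of the IGF1R arrays; 2, 2 and 1 without IGF1R-caPI3K replicates 1, 2 and 3; and 6, 2 and 3 without IGF1R-dnPI3K replicates 1, 2 and 3. Over all probe sets the count, 1066, was 132 with only the 2 groups compared and 387 of 12422 with no filter. It was 5 with the block, 73 to 208 without an IGF1R array and 1861 without IGF1R-dnPI3K replicate 1. Apart from quantile normalization, given above, it is not stated for the other settings, array weights included. The member counts of those settings thus stand without that share.

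In IGF1R-caPI3K against IGF1R the count was 0, and 3 with array weights, 3 with only the 2 groups compared and 0 to 3 with 1 array left out, the 3 (Myl2, Myl3 and Mybpc3) without IGF1R-dnPI3K replicate 3. Over all probe sets 17 passed, against 777, 699 and 550 in these settings. In IGF1R-caPI3K against IGF1R-dnPI3K it was 0, and 3 with array weights and 0 to 2 with 1 array left out; without IGF1R-dnPI3K replicate 1, the brighter Myl4 probe set passed as higher (1.01, adjusted p 0.0127) and Myom2 as lower (adjusted p 0.0105). There 98 of all probe sets passed, against 348 and 539.

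The Myl3 difference between IGF1R-dnPI3K and IGF1R turned to −0.04 after quantile normalization, both over all arrays and with only the 2 groups compared. Over the 21 alternatives the IGF1R-dnPI3K difference from IGF1R was past the threshold in 11 for Myl2, 8 for Myl3, 8 for Mybpc3, 7 for Myom2 and 3 for the brighter Myl4 probe set. A common median moved the median of all probe sets from −0.09 to 0.08, and the Myom2 difference was then 0.85 and that of the brighter Myl4 probe set −0.52. The dimmer one was −0.17 (adjusted p 0.468) with the higher floor. Apart from the smaller fits and the stricter filter, whose construction changes what is tested, the cause of these shifts was not tested. No paired analysis was possible because the titles give each array only a mouse number, and replicates were numbered in deposit order. With the series of mouse numbers as a block, Myom2 had 0.48 (adjusted p 0.411), Myl2 0.29 (adjusted p 0.552) and the brighter Myl4 probe set −0.23 (adjusted p 0.789), a fit in which the IGF1R-dnPI3K comparison rests on replicate 1. Myl7, at the level of Y-linked probe sets, and Ttn, with no probe set, could not be assessed.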
